A study of Mus musculus with 10 samples.

Results

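The levels of 10 enzyme genes of glucose breakdown and pyruvate use are described across sorted mouse embryonic stem (ES) cells: Hk1, Hk2, Pfkl, Pfkp, Pfkm, Eno3, Ldhb, Pdk1, Pdk3 and Pdha1. They were chosen by name as genes of glycolysis and of pyruvate control, and Gapdh was left out because its many processed pseudogenes share its reads. All 10 members were found, 1 row each, among 30349 gene symbols in 32361 rows. The cells were of the E14Tg2a.4 line. Knock-in reporters at both Esrrb and Tbx3 in 1 line gave 3 sorted fractions, abbreviated DN where both reporters were off, SP where that of Esrrb alone was on and DP where both were on. The other line held a Zscan4c promoter fragment on a piggyBac transposon, so that the fragment and not the gene itself set the gate, and its cells were sorted as Zscan4-positive or Zscan4-negative. Each fraction had 2 libraries from different days, 10 libraries in all. Levels were deposited as 1 value per row and fraction in FPKM, a count of fragments corrected for transcript length and library size, so no value below has an SD, a p-value or a replicate check, and the read depth is unknown.

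Glycolysis turns glucose into pyruvate, which cells either reduce to lactate or pass to the mitochondria as acetyl-CoA. Hexokinases trap glucose as glucose 6-phosphate, phosphofructokinases (PFK) carry out the committed step, lactate dehydrogenases interconvert pyruvate and lactate, and the pyruvate dehydrogenase complex makes acetyl-CoA unless a pyruvate dehydrogenase kinase (PDK) switches it off by phosphorylation. Naive ES cells are known to use both glycolysis and respiration, while primed cells, which resemble the later epiblast, lean more on glycolysis. Most of these steps have several isozymes encoded by separate genes, so a tissue can change its mix of isozymes as well as the total.

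A difference below is that of log2(FPKM + 1) between 2 fractions, and a size of 1 or more, 2-fold on that scale, counts as a call. The comparison took in the 13595 rows that reached 1 FPKM somewhere, and all 10 members were among them with at least 6.46 FPKM in every fraction. Ldhb and Pfkp had the widest ranges of log2(FPKM + 1) of the 10, 1.89 and 1.71. Eno3 followed with 1.35, Pfkm with 1.18 and Pdk1 with 1.07. Pfkl had the narrowest, 0.18.

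The sorted genes matched their gates. Esrrb was at 43.3 FPKM in DN, 177 in SP and 243 in DP cells, Tbx3 at 0.638, 1.75 and 12.6 FPKM in the same fractions, and Zscan4c at 120 FPKM in Zscan4-positive against 0.255 in Zscan4-negative cells. All 8 ES cell markers examined, Pou5f1 and Sox2 among them, were above 1 FPKM in every fraction, and their summed level ran from 4449 FPKM in DN to 6909 FPKM in DP cells. Markers of other cells were present in 2 fractions: the summed level of 14 fibroblast genes was 2028 FPKM in DN and 1437 in SP cells, against 26.5 to 38.2 FPKM in the other 3, and that of 13 T-lineage genes was 548 and 398 FPKM, against 22.9 to 37.4. Of the fibroblast genes, Dcn and Lum were below 1 FPKM in every fraction, and Lum was at 0 in both Zscan4 fractions. Of the T-lineage genes, Cd4 and Cd5 were below 1 FPKM in every fraction, Cd8a and Cd8b1 were at 1.87 and 1.44 FPKM or less, and Cd2 was at 5.15 FPKM in SP against 4.49 in DN cells. Gzma, Cd3g and Lck were the most abundant, at 223, 153 and 66.1 FPKM in DN cells, and Lck alone was at 20.9 of the 37.4 FPKM in DP cells. In the Tbx3 step, DP minus SP, 12 of 12 fibroblast genes compared and 7 of 11 T-lineage genes were at least 2-fold lower. In bulk RNA, fewer cells of a type and less RNA per cell cannot be told apart.

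Promoter sequence is shown for 4 members, because Ldhb, Pfkp and Eno3 are the members whose levels differed most and Hk2 carries the hypoxia response letters discussed with them. Each is the 250 bases before the RefSeq start site on GRCm38.p6 (the assembly also called mm10), 5′ to 3′ on the gene's strand. Capitals mark CG dinucleotides in the first 3. In Hk2 they mark the core ACGTG, bound by hypoxia-inducible factors, which lies on the opposite strand both times and so reads CACGT here. The stretches are chr6:142507958-142508207 (minus strand) for Ldhb, chr13:6648772-6649021 (minus strand) for Pfkp, chr11:70656926-70657175 (plus strand) for Eno3 and chr6:82774455-82774704 (minus strand) for Hk2.
Ldhb: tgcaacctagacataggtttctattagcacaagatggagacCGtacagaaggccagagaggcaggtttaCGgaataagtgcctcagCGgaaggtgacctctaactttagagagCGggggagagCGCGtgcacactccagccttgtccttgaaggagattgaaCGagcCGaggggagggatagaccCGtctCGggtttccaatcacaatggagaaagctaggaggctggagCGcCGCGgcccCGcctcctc
Pfkp: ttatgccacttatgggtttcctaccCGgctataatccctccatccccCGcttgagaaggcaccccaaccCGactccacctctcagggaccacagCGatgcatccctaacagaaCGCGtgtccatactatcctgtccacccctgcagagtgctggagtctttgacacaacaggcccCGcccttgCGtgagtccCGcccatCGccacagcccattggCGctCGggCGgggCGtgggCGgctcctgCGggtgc
Eno3: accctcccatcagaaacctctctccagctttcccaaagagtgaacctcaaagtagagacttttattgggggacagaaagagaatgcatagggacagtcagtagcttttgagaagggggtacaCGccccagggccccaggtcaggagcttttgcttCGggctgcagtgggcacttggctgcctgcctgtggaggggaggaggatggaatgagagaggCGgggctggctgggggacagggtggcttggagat
Hk2: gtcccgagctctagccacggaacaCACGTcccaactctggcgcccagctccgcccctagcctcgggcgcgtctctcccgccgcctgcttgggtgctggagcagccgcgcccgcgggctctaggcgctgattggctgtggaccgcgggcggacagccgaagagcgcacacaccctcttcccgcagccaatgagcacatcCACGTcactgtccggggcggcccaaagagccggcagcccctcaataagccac

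Ldhb and Pfkp hold 14 and 16 CG in these 250 bases, and Eno3 holds 3. In the full RefSeq windows, 250 bases before to 50 after the start, they hold 17, 21 and 3, where the median of all 32851 windows was 7. Such counts are common, since 31.4% of all windows hold at least 17 CG and 31.4% hold at most 3. All 10 members had a window, 15 start sites in all, since Hk1, Pfkm and Pdk1 have more than 1. The letters ACGTG, searched on both strands, stood in 5 of the 15 windows, those of 4 genes (Hk1, Hk2, Pfkm and Pdk3), and in 19.6% of all windows. In Hk2 they begin 226 and 52 bases before the start. The E-box CACGTG, which contains ACGTG, stood in 1 member window, that of the first Pfkm start site, and in 7.15% of all windows. The Esrrb half-site AAGGTCA stood in 0 of the 15, and in 4.72% of all windows. These are matches of letters in short windows and describe no binding.

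Hk2 was the most abundant of 4 hexokinase transcripts in every fraction. Hk2, the inducible hexokinase (chr6:82725025-82774454, minus strand, GENCODE M21 on GRCm38, as for all gene positions below), was at 59.1 FPKM in DN, 81.3 in SP, 104 in DP, 83.5 in Zscan4-positive and 82.8 in Zscan4-negative cells. It was thus lowest in DN and highest in DP cells, with the Zscan4 fractions near the SP level. Its difference was 0.45 in the Esrrb step (SP minus DN), 0.35 in the Tbx3 step (DP minus SP), 0.80 over both and 0.01 in the Zscan4 sort, none of them 2-fold. Hk1, the broadly expressed hexokinase (chr10:62268855-62379908, minus strand), was at 18.9, 22 and 19.3 FPKM in DN, SP and DP cells, and at 13.7 FPKM in Zscan4-positive against 13.2 in Zscan4-negative cells. Every Esrrb/Tbx3 fraction was above both Zscan4 fractions, although DP and Zscan4-negative cells differed by 0.51. Hk2 made up 75.7% of the summed FPKM of these 4 genes in DN, 78.7% in SP and 84.3% in DP cells, and 85.9% and 86.1% in Zscan4-positive and Zscan4-negative cells. Hk3 and Hkdc1 were each below 1 FPKM in every fraction. A short antisense gene, Hk1os, covers 1.84% of the exonic bases of Hk1 and was at 1.64 FPKM or less. Counting is not stated to use strand, so reads of a member and of a gene that overlaps it cannot be told apart.

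**Figure D1:**
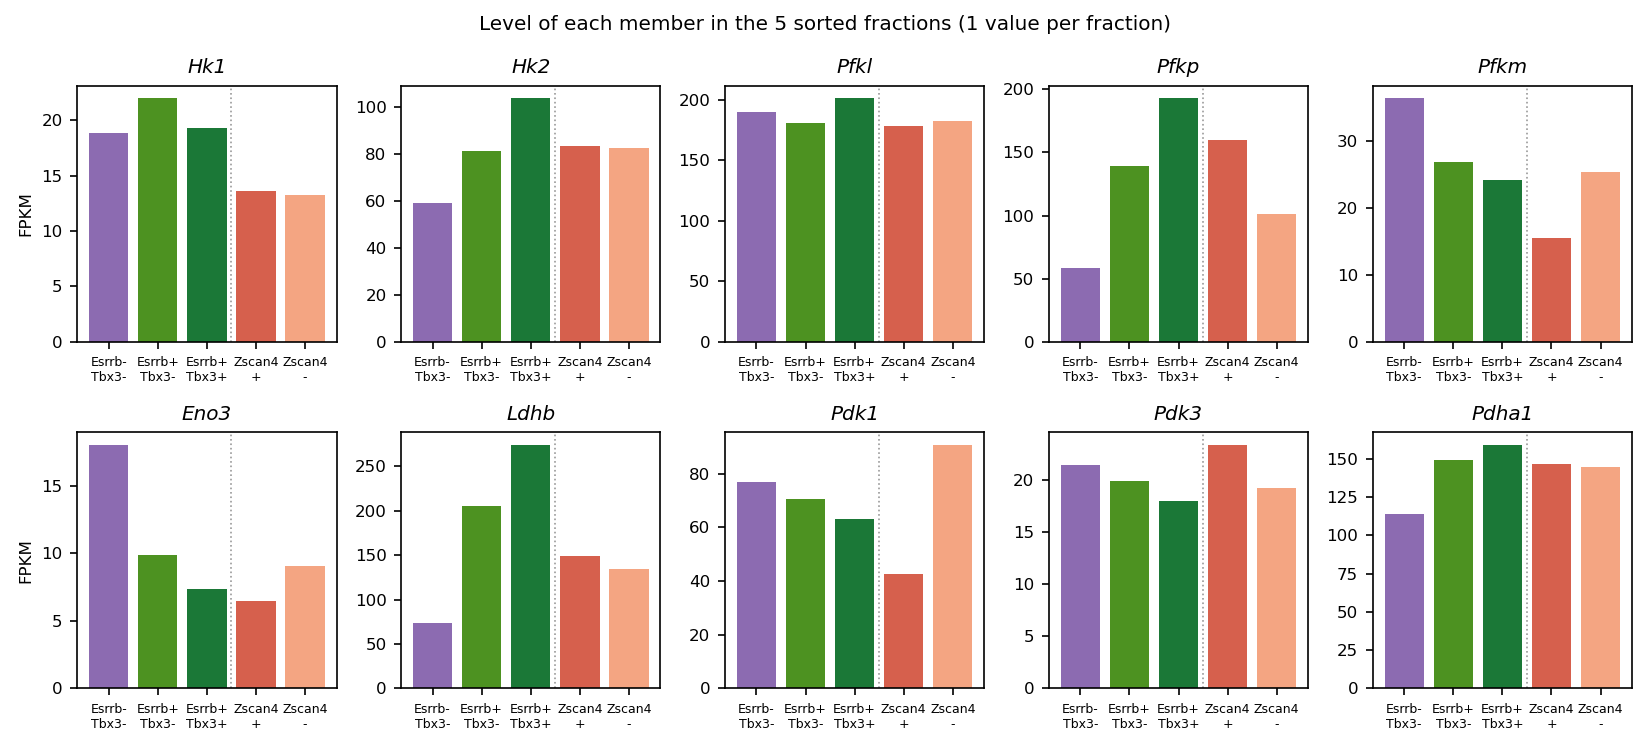
Level of each of the 10 members in FPKM (bars, linear axis from 0, a separate scale in each panel), with the 3 Esrrb/Tbx3 fractions left of the dotted line and Zscan4-positive and Zscan4-negative cells to its right. Each bar is 1 deposited value, and Pfkp and Ldhb are lowest in DN cells (58.3 and 73.2 FPKM) and highest in DP cells (193 and 275 FPKM).

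Of the PFK genes, the platelet-type Pfkp had the widest range over the 5 fractions. Pfkp (chr13:6579768-6648777, minus strand) was at 58.3 FPKM in DN, 139 in SP, 193 in DP, 160 in Zscan4-positive and 102 in Zscan4-negative cells. The order of fractions is that of Esrrb in the Esrrb/Tbx3 line, and Zscan4-positive cells stood above Zscan4-negative ones. Its difference was 1.25 in the Esrrb step, where 1.12% of all compared rows had as high a difference, 0.47 in the Tbx3 step (3.19% of rows), and 1.71 between DP and DN cells. In the Zscan4 sort it was 0.65, short of 2-fold. The overlapping gene Pitrm1, on the opposite strand, shares 5.58% of the exonic bases of Pfkp and ran from 65.4 to 72.8 FPKM over the 5 fractions. Whether reads of Pitrm1 were counted for Pfkp was not tested.

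The liver-type Pfkl (chr10:77986947-78010083, minus strand) was nearly level. It was at 190, 181 and 201 FPKM in DN, SP and DP cells, and at 178 and 183 FPKM in Zscan4-positive and Zscan4-negative cells. The muscle-type Pfkm (chr15:98092589-98132451, plus strand) ran opposite to Pfkp: it was at 36.5, 26.9 and 24.2 FPKM in DN, SP and DP cells, and at 15.5 FPKM in Zscan4-positive against 25.5 in Zscan4-negative cells. Its differences were -0.42, -0.15 and -0.57 in the Esrrb step, the Tbx3 step and over both, and -0.68 in the Zscan4 sort, where 2.32% of rows had as low a value. None of these reached 2-fold. Gm26513, annotated on the same strand, shares 10.2% of the exonic bases of Pfkm.

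Set against each other within a fraction, which no scaling of columns can alter, the mix of PFK genes differed. Pfkp made up 20.5% of the summed PFK level in DN, 40.2% in SP and 46.1% in DP cells, while Pfkl made up 66.7%, 52.1% and 48.1% and Pfkm 12.8%, 7.76% and 5.78%. In the Zscan4 sort, Pfkp made up 45.3% in positive and 32.8% in negative cells, and Pfkm 4.38% and 8.23%. The ratio of Pfkp to Pfkm was 10.3 in Zscan4-positive, the highest of the 5 fractions, against 3.99 in Zscan4-negative cells, and 1.60 in DN cells. The summed PFK level was 285, 347 and 419 FPKM in DN, SP and DP cells, and 354 and 310 FPKM in Zscan4-positive and Zscan4-negative cells. These shares were computed after the values had been seen.

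**Figure D2:**
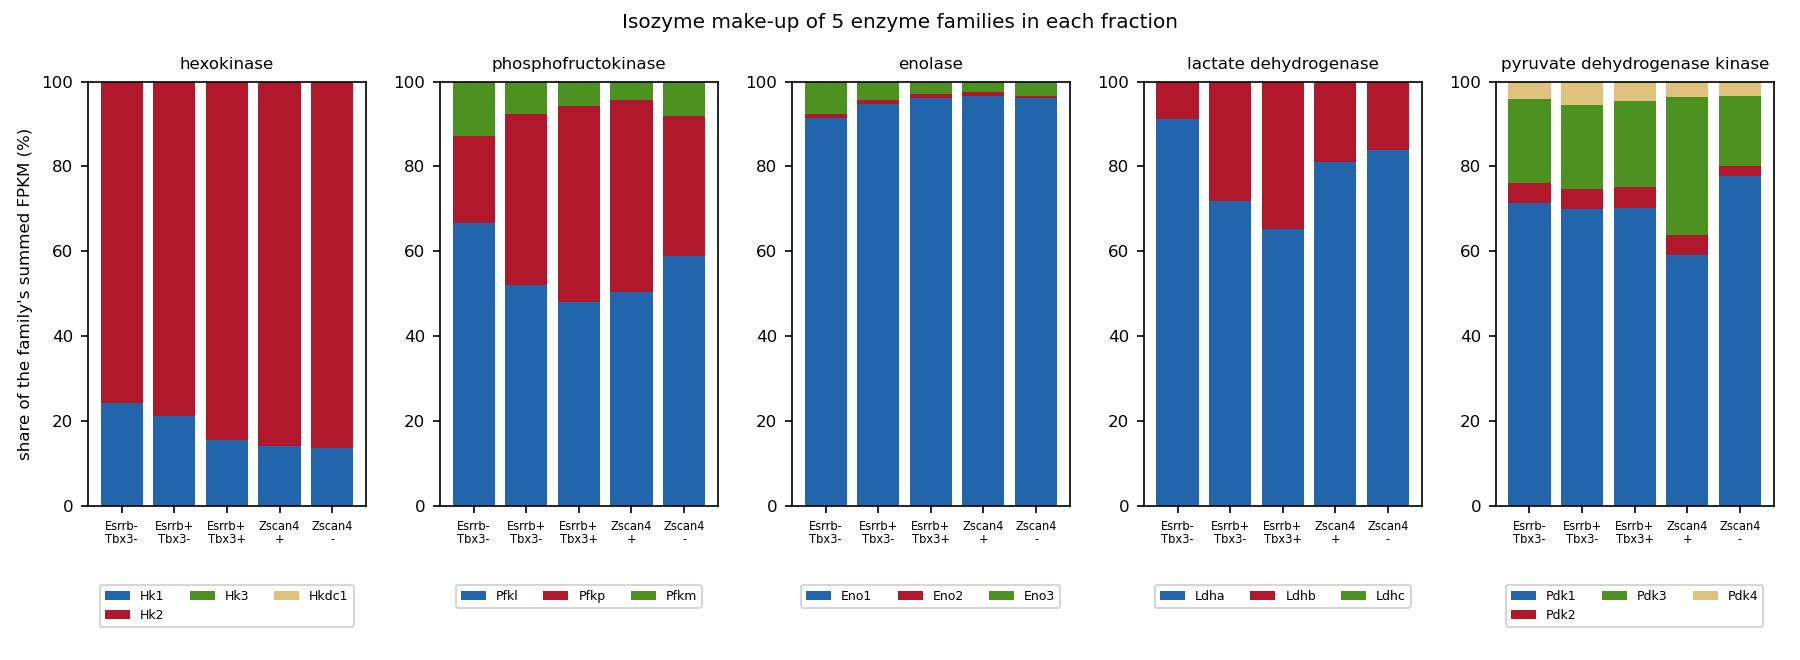
Share of each isozyme gene in the summed FPKM of its family (percent, stacked to 100), for 5 enzyme families in each of the 5 fractions. Pfkp takes 20.5% of the PFK bar in DN and 46.1% in DP cells, and Ldhb 8.81% and 34.7% of the lactate dehydrogenase bar.

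Eno3, the muscle-type enolase gene (chr11:70657202-70662513, plus strand), was a minor transcript that was highest in DN cells. It was at 18.0 FPKM there, 9.87 in SP, 7.32 in DP, 6.46 in Zscan4-positive and 9.03 in Zscan4-negative cells. The difference was -0.81 in the Esrrb step, where 2.57% of rows were as low, and -0.39 in the Tbx3 step, where 17.3% were. It was -1.19 between DP and DN cells, where 9.36% of rows were as low, and -0.43 in the Zscan4 sort, where 7.77% were. Eno1, the general enolase gene, was at 217 FPKM in DN, 215 in SP and 240 in DP cells, so that Eno3 made up 7.58%, 4.34% and 2.94% of the enolase level. Other muscle genes were near absent: of 10 skeletal muscle markers, Myog, Myf5, Myf6, Myh3, Actc1, Ckm, Tnnt3 and Acta1 were below 1 FPKM in every fraction and Myod1 at 1.06 FPKM or less. The exception was Mylpf, a myosin light chain gene, at 13.5, 107 and 216 FPKM in DN, SP and DP cells, opposite in order to Eno3.

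Ldhb had the largest difference of the 10 members in the Esrrb step and between DP and DN cells. It encodes the heart-type lactate dehydrogenase subunit, which favours the conversion of lactate to pyruvate (chr6:142490249-142507957, minus strand). It was at 73.2 FPKM in DN, 206 in SP, 275 in DP, 149 in Zscan4-positive and 134 in Zscan4-negative cells. SP and DP cells stood above both Zscan4 fractions, and DN cells below all. The difference was 1.48 in the Esrrb step, as high in 0.647% of rows, 0.42 in the Tbx3 step and 1.89 between DP and DN cells, but 0.15 in the Zscan4 sort.

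Its partner Ldha, the muscle-type subunit gene, had the reverse order, at 757, 525 and 515 FPKM in DN, SP and DP cells and at 642 and 708 FPKM in Zscan4-positive and Zscan4-negative cells. Ldhb therefore made up 8.81% of the lactate dehydrogenase level in DN, 28.1% in SP and 34.7% in DP cells, against a summed level of 830, 732 and 791 FPKM. In Zscan4-positive and Zscan4-negative cells the Ldhb share was 18.8% and 15.9%. Ldha is known to have processed copies that can share reads, so its absolute level is uncertain. The testis gene Ldhc was at 1.32 FPKM or less.

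At the entry of pyruvate into the mitochondria, Pdk1 stood out in the Zscan4 sort. Pdk1, a kinase that inactivates pyruvate dehydrogenase and a known target of hypoxia-inducible factors (chr2:71873224-71903858, plus strand), had 42.7 FPKM in Zscan4-positive against 90.8 in Zscan4-negative cells. This was its lowest and its highest level, since it was at 76.8, 70.5 and 62.9 FPKM in DN, SP and DP cells. The difference in the sort was -1.07, as low in 0.706% of rows, whereas it was -0.12 in the Esrrb step, -0.16 in the Tbx3 step and -0.28 over both. No GENCODE gene overlaps Pdk1, but its deposited row gives a far longer stretch, chr2:71389260-71903858. Rows of other genes, among them Hat1, Metap1d, Dlx1, Dlx2 and Itga6, give the same stretch. The rows of Hk1, Pfkl, Pfkp, Pfkm and Pdha1 likewise share their stretch, with Hk1os, AK192985, Pitrm1, Senp1 and Map3k15 in that order. How reads were divided among rows of a shared stretch is not stated. Pdk3, a related kinase gene (chrX:93764607-93832201, minus strand), was at 21.5, 19.9 and 18.0 FPKM in DN, SP and DP cells and at 23.4 FPKM in Zscan4-positive against 19.2 in Zscan4-negative cells. It differed by 0.27 in the sort, in the direction opposite to Pdk1 but short of 2-fold. The ratio of Pdk1 to Pdk3 was 1.82 in Zscan4-positive against 4.72 in Zscan4-negative cells, and between 3.49 and 3.57 in the 3 Esrrb/Tbx3 fractions. With Pdk2 and Pdk4, which were at 5.59 FPKM or less, the 4 kinase genes summed to 72.2 FPKM in Zscan4-positive against 117 in Zscan4-negative cells.

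Pdha1 encodes the catalytic alpha subunit of pyruvate dehydrogenase, which the kinases phosphorylate (chrX:160122209-160138413, minus strand). It was at 114, 149 and 159 FPKM in DN, SP and DP cells, and at 146 and 144 FPKM in Zscan4-positive and Zscan4-negative cells, so DN cells were lowest and the other 4 fractions lay close together. Its difference was 0.39 in the Esrrb step and 0.09 in the Tbx3 step. Pdk1 per Pdha1 was 0.674, 0.473 and 0.395 in DN, SP and DP cells, and 0.292 in Zscan4-positive against 0.628 in Zscan4-negative cells. Map3k15, on the opposite strand, shares 16.1% of the exonic bases of Pdha1 and was at 3.71 FPKM or less. Pdhb, which encodes the beta subunit, was at 94.1, 101 and 126 FPKM in DN, SP and DP cells.

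The comparisons asked what accompanies Esrrb, then Tbx3, then Zscan4 expression. Tbx3 differed in the Zscan4 sort too, at 35.3 FPKM in Zscan4-positive against 11.4 in Zscan4-negative cells. That sort therefore does not separate Zscan4 from Tbx3. In the Esrrb step 2 members, Ldhb and Pfkp, were at least 2-fold higher and 0 lower, where 3.25% of all rows differed 2-fold in either direction, 1.82% higher and 1.43% lower. In the Tbx3 step 0 of the 10 reached 2-fold, where 7.28% of rows did, 0.346% higher and 6.94% lower. Between DP and DN cells 2 members were higher, Ldhb and Pfkp, and 1 lower, Eno3, where 16.0% of rows differed, 3.81% higher and 12.2% lower. In the Zscan4 sort 0 were higher and 1 lower, Pdk1, where 4.33% of rows differed, 3.46% higher and 0.875% lower. The median difference of the 10 members was 0.07 in the Esrrb step, -0.02 in the Tbx3 step and 0.02 in the Zscan4 sort, against -0.02, 0.01 and -0.01 over all rows.

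**Figure D3:**
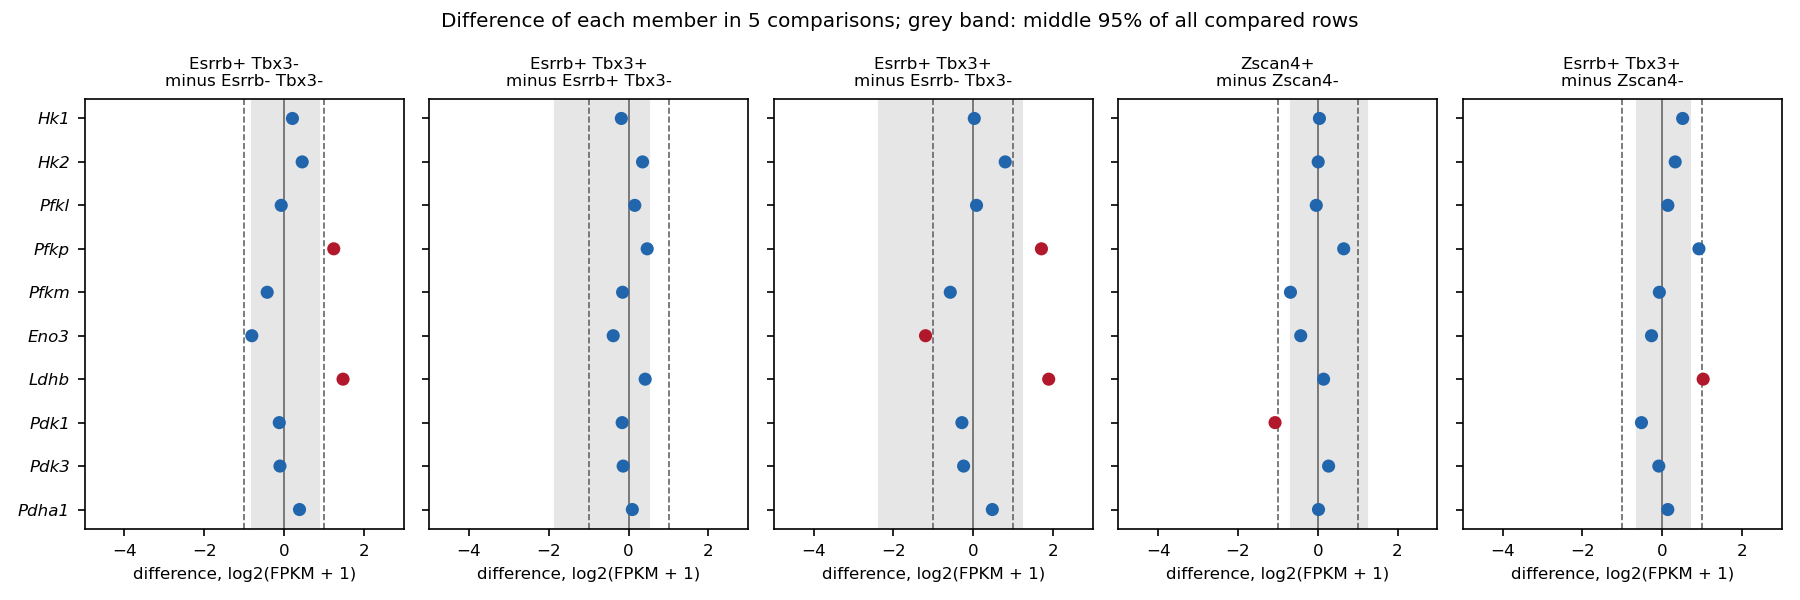
Difference of log2(FPKM + 1) of each member in 5 comparisons (points, red where at least 2-fold), with dashed lines at 2-fold and a grey band over the middle 95% of all 13595 compared rows. Ldhb and Pfkp lie right of the band in the Esrrb step at 1.48 and 1.25, and Pdk1 lies left of it in the Zscan4 sort at -1.07. Eno3, past 2-fold between DP and DN cells at -1.19, lies inside the band there.

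Direction over the 2 steps split the members evenly. Hk2, Pfkp, Ldhb and Pdha1 were higher at both steps, as were 34.8% of all rows, and Pfkm, Eno3, Pdk1 and Pdk3 were lower at both, as were 37.2% of all rows. Hk1 was highest in SP cells and Pfkl lowest there. The Tbx3 step compares cells that also differ in Esrrb, so it does not separate the factors. The 3 comparisons within this line share fractions, so they are not independent of each other.

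The summed fibroblast and T-lineage marker levels were also lower in DP than in DN cells, and values for such markers and for the 4 members lower at both steps are given side by side. With the DP level subtracted from both fractions, the ratio of SP to DN level was 0.226 for Pfkm, 0.238 for Eno3, 0.550 for Pdk1 and 0.552 for Pdk3. For Pdk1 and Pdk3 it rests on differences of 13.8 and 3.44 FPKM between DN and DP cells. For the 18 markers with at least 5 FPKM in DN cells, a filter on the fraction where they are high, the ratio ran from 0.666 to 0.830 with a median of 0.706. The subtraction treats the DP level as a baseline, which was not shown, and the 4 members were picked for their order of fractions. How much of any member's level came from other cells was not tested.

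DP and Zscan4-negative cells come from different reporter lines, so line and sorted state cannot be told apart between them. Both had high Esrrb, at 243 against 203 FPKM, and similar Tbx3, at 12.6 against 11.4 FPKM. Ldhb was at 275 FPKM in DP against 134 in Zscan4-negative cells, a difference of 1.02, and Pfkp at 193 against 102, a difference of 0.92. Of the 10 members, 1 was thus at least 2-fold higher, where 1.56% of rows differed 2-fold in either direction, 0.743% higher and 0.816% lower. Pdk1 was at 62.9 FPKM in DP against 90.8 in Zscan4-negative cells, a difference of -0.52. With equal FPKM totals Ldhb differed by 0.97, just short of 2-fold, and by 1.00 relative to the median of all rows, which that scaling also moved.

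The other enzymes of glycolysis stayed within 2-fold. Of 21 other glycolysis genes, 14 could be compared, among them Gpi1, Aldoa, Tpi1, Pgk1, Pgam1 and Pkm, and 0 reached 2-fold in any of the 5 comparisons. Their medians were -0.02 in the Esrrb step, 0.07 in the Tbx3 step and -0.01 in the Zscan4 sort. Pkm, the pyruvate kinase gene, was at 1140, 1117 and 1231 FPKM in DN, SP and DP cells, and Aldoa, an aldolase gene, at 1107, 1120 and 1337 FPKM. All 15 citric acid cycle genes and all 7 pentose phosphate genes stayed within 2-fold in the 5 comparisons, with the citric acid cycle genes between -0.27 and 0.41. Among 12 other genes of pyruvate entry, the only one past 2-fold was Pdha2, in the Zscan4 sort. Most of all compared rows stayed within 2-fold too. The share past it was 3.25% in the Esrrb step, 7.28% in the Tbx3 step and 16.0% between DP and DN cells. It was 4.33% in the Zscan4 sort and 1.56% between DP and Zscan4-negative cells. The same shares go with the list counts of the paragraphs that follow. The difference between these lists and the members was not tested.

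Genes that control fructose bisphosphate held 1 of 6 past 2-fold in the Esrrb step and 2 of 6 between DP and DN cells, all higher. Of all rows, 1.82% and 3.81% were higher in these comparisons. Fbp2 alone was past it in the Tbx3 step and the Zscan4 sort, where 0.346% and 3.46% of rows were higher. Fbp2 was also 1 of the 2 between DP and DN cells, at 1.75 against 0.236 FPKM, below the 5 FPKM asked for naming. The other was Tigar, which encodes a fructose bisphosphatase that diverts sugar away from glycolysis and is listed under its older name 9630033F20Rik. It was at 10.6, 23.7 and 32.3 FPKM in DN, SP and DP cells, the same order as Pfkp and Ldhb. Pfkfb3, whose product activates PFK, was at 10.02, 7.64 and 6.74 FPKM. Of 7 sugar and lactate transport genes compared 0 reached 2-fold. The neuronal-type glucose transporter gene Slc2a3 was at 277, 411 and 508 FPKM in DN, SP and DP cells and at 665 FPKM in Zscan4-positive against 430 in Zscan4-negative cells. Slc2a1, another glucose transporter gene, ran the other way, at 389, 326 and 316 FPKM in DN, SP and DP cells. It was at 429 FPKM in Zscan4-positive against 427 in Zscan4-negative cells. Slc16a3, a lactate exporter gene, was also highest in DN cells, at 79.0, 46.9 and 49.2 FPKM in DN, SP and DP cells.

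Regulators of glycolysis and other targets of hypoxia-inducible factors (HIF) were counted beside Pdk1. Of 12 regulators compared, 0 reached 2-fold in any comparison. Hif1a, a HIF subunit gene, was at 40.8 FPKM in Zscan4-positive against 45.2 in Zscan4-negative cells, and Myc at 25.4 against 44.5 FPKM. Of 11 HIF targets compared, 1 was higher in the sort, P4ha2, a collagen prolyl hydroxylase gene, at 39.5 FPKM in Zscan4-positive against 4.20 in Zscan4-negative cells. Egln3, an oxygen sensor gene, was at 7.55 against 13.5 FPKM and Bnip3, a mitophagy gene, at 44.6 against 45.0 FPKM. Ankrd37, Ndrg1 and P4ha1 went the other way, at 8.36, 17.9 and 32.9 FPKM against 5.49, 13.1 and 25.9 FPKM. The median of the 11 targets in the sort was -0.01, as over all rows. In the Esrrb step 1 target was lower, Adm, which encodes a vasodilator peptide, at 2.59 FPKM in SP against 7.89 in DN cells. In the Tbx3 step 1 target was lower, P4ha2, at 4.402 FPKM in DP against 10.4 in SP cells. Between DP and DN cells Adm and P4ha2 were lower and 1 target was higher. That was the demethylase gene Kdm3a, at 135 FPKM in DP against 58.6 in DN cells, a difference of 1.19.

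**Figure D4:**
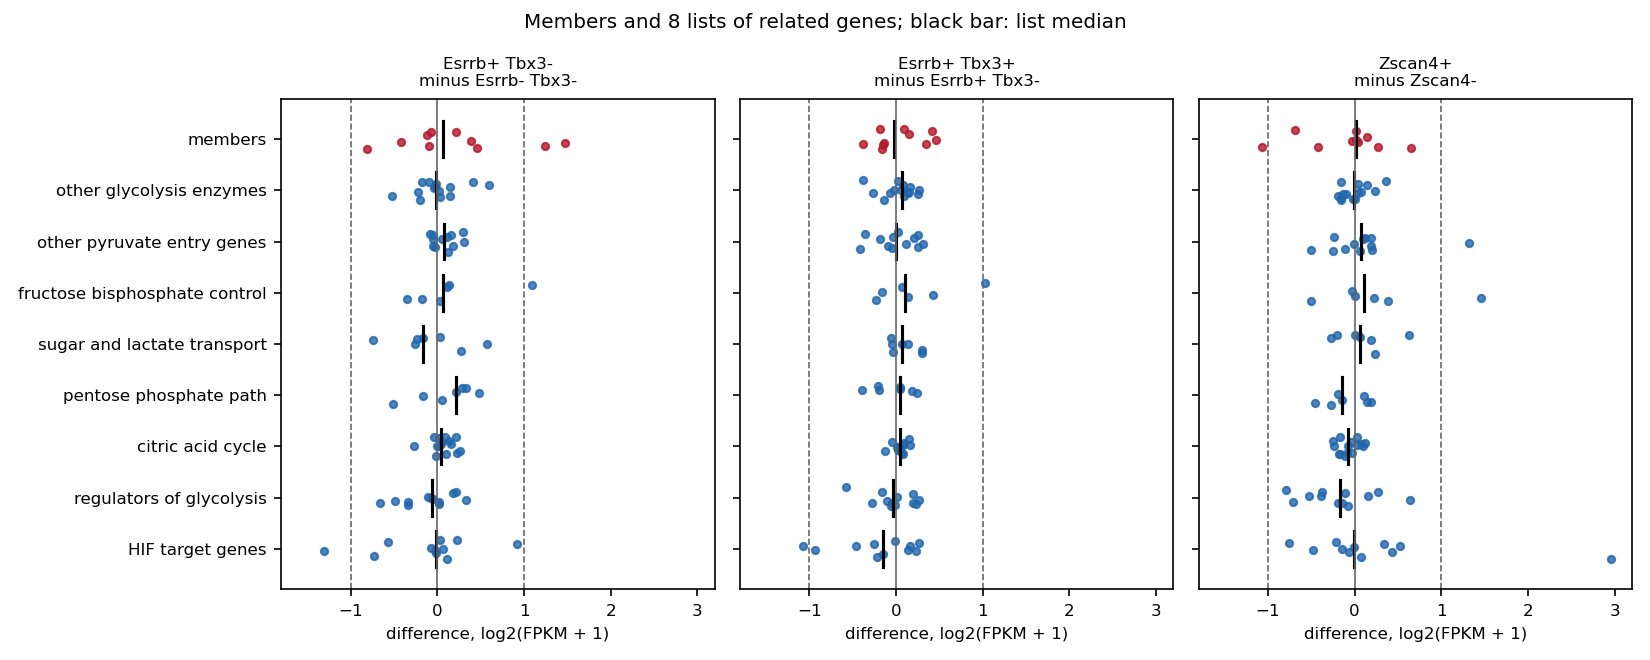
Differences of log2(FPKM + 1) in the Esrrb step, the Tbx3 step and the Zscan4 sort for the members (red) and 8 lists of related genes (blue), 1 point per gene, with a black bar at each list's median and dashed lines at 2-fold. The other glycolysis enzymes lie within 2-fold in all 3 panels, while Ldhb and Pfkp lie past it in the first at 1.48 and 1.25.

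The genes whose levels over the 5 fractions were most like those of the 3 widest-ranging members were picked by the smallest distance of centred log2(FPKM + 1) among 9638 protein-coding rows with at least 5 FPKM in a fraction. For Ldhb they were Dnajc6 (distance 0.19), Vwf (0.26) and Itga9 (0.27). Pfkp was nearest to Stac2 (0.09), Slc28a1 (0.20) and Cdhr1 (0.21). Eno3 was nearest to Stard10 (0.12), Slc43a2 (0.14) and Sepp1 (0.16). Stac2, for one, was at 3.55, 9.25 and 12.8 FPKM in DN, SP and DP cells and at 11.01 FPKM in Zscan4-positive against 6.84 in Zscan4-negative cells, the order of fractions that Pfkp had. With 5 points per gene, such likeness is a description.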

How the data were processed

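RNA of 5 sorted fractions was sequenced, 2 libraries each. Extraction used Qiagen RNeasy columns and library preparation NEBNext Ultra, per the labels' protocols. Tools named in the submitters' processing notes are TopHat2 2.0.14, Cuffdiff 2.2.1, Cufflinks and bcl2fastq 1.8.4, with mm10. The annotation, how libraries were merged and whether strand was used in counting are not stated there. The authors deposited FPKM values, 1 per row and fraction. Low values showed no common step between columns (at most 1.37% of ratios in any bin of 0.02 on the log2 scale, over 2 pairs of columns), so whole reads could not be recovered. The measure is the difference of log2(FPKM + 1), which understates the difference of low genes. The members, 8 pathway lists of 98 genes (96 matched by symbol or RefSeq synonym, all but Mpc2 and Dlst) and 4 marker lists were chosen with earlier results of these data known. By the naming rule, a list gene is named if it passed 2-fold and its higher level was 5 FPKM or more, and isozymes of members always. Other list genes named without a call, such as Pkm, Aldoa, Pfkfb3, Slc2a1, Slc2a3, Slc16a3, Hif1a, Arnt, Myc, Egln3, Bnip3, Ankrd37, Ndrg1 and P4ha1, were chosen after their values were seen. Of the gene families described, 1 gene is not reported here. Promoter sequences are RefSeq's on GRCm38.p6, and gene positions and exon overlaps come from GENCODE M21. Python 3.11.15 with pandas 2.3.3, numpy 2.4.6 and matplotlib 3.10.9 was used, and the steps were tested on simulated data.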

Additional observations from a re-analysis of the deposited data

How the results depend on the processing

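The alternatives were a pseudocount of 0.1 or 0.5, no filter or one of 5 FPKM, equal FPKM totals, median-ratio scaling, and summed rows of a symbol. The filters and the summing cannot change a member's value, so 200 of the 350 recomputed values could move. Of these, 199 kept their side of 2-fold; the exception was Ldhb between DP and Zscan4-negative cells, at 0.97 with equal totals, which left 0 members past 2-fold there. Relative to the median of all rows under that scaling, Ldhb was at 1.00. Of 50 pairs of member and comparison, 6 small uncalled differences changed sign: those of Hk1 and Pfkl between DP and DN cells, and of Hk1, Hk2, Pfkl and Pdha1 in the Zscan4 sort. Relative to the median of all rows, 0 of the 6 changed sign under either scaling. Equal totals moved the median of all rows between DP and DN cells to -0.12, and relative to it Ldhb differed by 1.90, Pfkp by 1.71 and Eno3 by -1.18. With a pseudocount of 0.1 in place of 1, 428 rows in place of 247 were higher and 469 in place of 195 lower in the Esrrb step, 153 in place of 47 and 1460 in place of 943 in the Tbx3 step, 835 in place of 470 and 280 in place of 119 in the Zscan4 sort, and 341 in place of 101 and 339 in place of 111 between DP and Zscan4-negative cells. With 0.5, 75 were higher in the Tbx3 step, and 173 higher and 172 lower between the lines. The filter of 5 FPKM left fewer rows to compare, 10129 in place of 13595. With it, 612 rows were lower in the Tbx3 step and 303 higher in the Zscan4 sort. Between DP and DN cells 972 in place of 1656 were lower. No paired analysis was possible because the table merges the 2 libraries of a fraction into 1 column, and for the same reason leaving out a replicate was not run.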

Other observations

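A pair of isozyme genes outside the members was at least 2-fold higher in Zscan4-positive cells at low levels, below the 5 FPKM asked for naming, and both were chosen after their values were seen. Pdha2, the testis copy of Pdha1, was at 2.29 FPKM in Zscan4-positive against 0.317 in Zscan4-negative cells, and at 0.158 to 0.376 FPKM in the 3 Esrrb/Tbx3 fractions. Fbp2, the muscle fructose bisphosphatase gene, was at 3.32 against 0.571 FPKM, and at 0.236, 0.357 and 1.75 FPKM in DN, SP and DP cells. Gapdh, left out of the members, was listed at 0.845 to 1.24 FPKM.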
